A study of Mus musculus with 12 samples.

Results

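The 42 genes described here are 2 glucose transporters, 18 genes of glycolysis, 5 genes of lactate and pyruvate handling, and 17 genes of the hypoxia-inducible factor (HIF) pathway outside glycolysis, chosen by name with earlier results of these data known. All 42 were found among the 23479 genes of the table, and 39 had a normalized read count of at least 10 in at least 3 of the 12 RNA-seq libraries and were tested. Eno2, P4ha2 and Higd1a did not reach that level, and Eno1, Ldhb and Egln3 passed it at values close to 0. By group, 2 of 2 glucose transporters, 17 of 18 glycolysis genes, 5 of 5 lactate and pyruvate genes and 15 of 17 HIF pathway genes were tested.

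The cells were cultured from 1 B cell lymphoma of a C57BL/6 mouse that carried Eµ-Myc, which drives Myc in B cells from the immunoglobulin heavy chain enhancer, together with Eµ-rtTA, and were grown in medium with serum and interleukin-7. TFEB cells carried a retrovirus for puromycin resistance and for TFEB with serine 211 changed to alanine, fused to ERT2, a mutated hormone-binding part of the human oestrogen receptor that responds to 4-hydroxytamoxifen (4-OHT). Vector cells carried the retrovirus with puromycin resistance alone, and all 4 groups had been selected in puromycin. The groups, with 3 libraries each, were TFEB cells in 4-OHT, TFEB cells in vehicle, vector cells in 4-OHT and vector cells in vehicle, all collected after 4 days. The 4-OHT dose was 250 nM per the labels, although the design text gives the same figure in another unit. The sources used here do not say whether the 3 libraries of a group came from separate transductions or cultures, so every p-value reflects only how far these libraries spread, and that spread may be technical. The labels give neither the age of the mouse nor the oxygen level of the cultures, and all results come from 1 tumour.

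Glycolysis converts glucose to pyruvate, and lactate dehydrogenase with the monocarboxylate transporters turns pyruvate into lactate and carries it out of the cell. HIF is a dimer of an oxygen-labile alpha subunit, encoded here by Hif1a, and the stable partner ARNT; in oxygen, prolyl hydroxylases such as EGLN1 mark the alpha subunit and the VHL ubiquitin ligase removes it, so much of the control of HIF acts on protein and is not visible in mRNA. HIF dimers bind a short core read as ACGTG or GCGTG next to many glycolytic genes, and MYC also drives several of them in B cell lymphoma. TFEB is a basic helix-loop-helix factor known for lysosomal and autophagy genes and binds the related E-box CACGTG, often with flanking bases as TCACGTGA.

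The proximal promoters of 6 members are shown because these genes had large changes in TFEB cells after 4-OHT, the first 4 downward and the last 2 upward; they were picked after their values were seen. Each is the RefSeq window (GRCm38.p6, which is mm10) of 250 bases before to 50 bases after the gene's start, 5′ to 3′ on the gene's own strand, with each HIF core in capitals on either strand, so that CACGT and CACGC are the core read on the other strand.
Ankrd37: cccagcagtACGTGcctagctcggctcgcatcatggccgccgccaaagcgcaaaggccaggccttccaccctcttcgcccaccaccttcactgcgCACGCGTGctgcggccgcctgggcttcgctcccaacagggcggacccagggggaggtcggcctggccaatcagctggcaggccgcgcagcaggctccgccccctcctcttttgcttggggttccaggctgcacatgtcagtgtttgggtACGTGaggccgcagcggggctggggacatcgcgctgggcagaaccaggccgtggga
Bnip3: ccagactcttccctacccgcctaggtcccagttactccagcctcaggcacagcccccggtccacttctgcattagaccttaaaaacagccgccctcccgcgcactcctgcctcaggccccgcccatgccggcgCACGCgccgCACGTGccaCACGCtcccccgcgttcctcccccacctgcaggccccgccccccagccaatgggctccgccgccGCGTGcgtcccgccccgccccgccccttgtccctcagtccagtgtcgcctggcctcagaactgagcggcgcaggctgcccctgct
Pgk1: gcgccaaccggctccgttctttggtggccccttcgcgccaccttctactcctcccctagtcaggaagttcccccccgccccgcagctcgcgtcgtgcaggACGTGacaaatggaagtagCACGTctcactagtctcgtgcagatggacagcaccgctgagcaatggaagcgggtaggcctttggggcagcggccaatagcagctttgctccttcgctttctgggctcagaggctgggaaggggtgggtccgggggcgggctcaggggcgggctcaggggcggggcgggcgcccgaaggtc
Pdk1: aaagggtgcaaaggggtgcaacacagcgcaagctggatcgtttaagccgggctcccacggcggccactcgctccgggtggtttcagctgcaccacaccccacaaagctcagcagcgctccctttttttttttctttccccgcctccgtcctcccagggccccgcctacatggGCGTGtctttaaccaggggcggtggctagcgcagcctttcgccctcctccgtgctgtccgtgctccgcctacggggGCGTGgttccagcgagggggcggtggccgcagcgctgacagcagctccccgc
Eno3: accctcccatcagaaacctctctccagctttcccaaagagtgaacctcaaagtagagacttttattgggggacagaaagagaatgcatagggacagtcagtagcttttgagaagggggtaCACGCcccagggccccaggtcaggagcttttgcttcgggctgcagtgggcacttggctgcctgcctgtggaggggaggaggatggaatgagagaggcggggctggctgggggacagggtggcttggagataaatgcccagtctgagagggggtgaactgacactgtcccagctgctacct
Vhl: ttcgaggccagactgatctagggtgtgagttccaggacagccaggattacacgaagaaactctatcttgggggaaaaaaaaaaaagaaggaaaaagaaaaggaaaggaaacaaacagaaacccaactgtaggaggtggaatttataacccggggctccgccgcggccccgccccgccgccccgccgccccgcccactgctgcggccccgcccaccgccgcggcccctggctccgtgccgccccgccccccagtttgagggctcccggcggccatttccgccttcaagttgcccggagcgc

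The window of Ankrd37 lies at chr8:45999801-46000100 on the reverse strand, and that of Bnip3 at chr7:138909457-138909756 on the reverse strand. Pgk1 starts on the X chromosome, with its window at chrX:106186850-106187149 on the forward strand. The first of 2 windows of Pdk1 lies at chr2:71872974-71873273 on the forward strand. For Eno3 the window is chr11:70656926-70657225 on the forward strand, and for Vhl it is chr6:113623744-113624043 on the forward strand. Bnip3 held 5 core matches, of which 2 are the strands of 1 E-box. Ankrd37 held 4, of which 2 overlap on opposite strands in CACGCGTG. Pgk1 and Pdk1 held 2 each, Eno3 1 and Vhl 0.

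Values are the authors' normalized read counts, and changes were computed after adding 1 and taking log2, so those of low genes are understated. Libraries held 11849029 to 22109283 reads, with 11390 to 19250 genes detected. The library with the most detected genes in its group was TFEB 4-OHT library 2 (19250), TFEB vehicle library 1 (16471) and vector 4-OHT library 2 (19057), and results that end without these 3 gene-rich libraries, a setting chosen after the counts of detected genes were seen, are named. The mouse Tfeb gene, whose reads cannot be divided between fusion and endogenous gene, was at 581 to 711 in TFEB cells in 4-OHT and 1476 to 1955 in TFEB cells in vehicle, against 195 to 238 in vector cells in 4-OHT and 223 to 255 in vector cells in vehicle. Myc did not pass the threshold with 4-OHT in TFEB cells (log2 -0.22 ± 0.08 SE, limma adjusted p = 0.052). Its counts were 25548 to 27312 in TFEB cells in 4-OHT and 29850 to 32093 in TFEB cells in vehicle. These groups did not overlap, which held for 38% of all tested genes. Vector cells had 29680 to 32175 counts of Myc in 4-OHT and 31060 to 33633 in vehicle. The summed level of 10 B cell markers was 28995 to 31002 in TFEB cells in 4-OHT and 50785 to 54262 in TFEB cells in vehicle. Of the 9 tested markers 7 fell and 2 rose (limma), against 13.9% and 13.7% of all tested genes. The 2 that rose were Cd79a and Ptprc. Sums of the markers of other cells were 795 to 991 against 547 to 915 for T cells (9 genes), 49.5 to 170 against 37.7 to 58.1 for myeloid cells (9 genes), 130 to 175 against 23.5 to 85.7 for NK cells (6 genes), 9.69 to 27.1 against 20.3 to 58.1 for red cells and platelets (8 genes, 5 of them at 0 in all libraries, globins included) and 703 to 962 against 868 to 875 for stroma and endothelium (10 genes), in TFEB cells in 4-OHT against TFEB cells in vehicle. Among their tested markers, 1 of 5 for T cells and 1 of 2 for NK cells rose, with 0 falls. For myeloid cells 0 of 3 were called, for red cells and platelets 0 of 1, and for stroma and endothelium 0 of 6. The part of any of these cell types in the results below was not tested. In bulk RNA fewer cells of a type and less RNA per cell cannot be told apart. The share of reads from the ribosomal RNA precursor Rn45s was 4.13 to 4.53% in TFEB cells in 4-OHT and 4.76 to 6.66% in TFEB cells in vehicle.

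One library stood apart for these genes, so results that rest on it are given with and without it. In vector cells in 4-OHT, library 3 had 2777 counts of Bnip3 against 7067 and 6509.8 in the other 2, 747 against 1922 and 1708 counts of Ankrd37, and 27.1 against 208 and 128 counts of Bhlhe40. Over the 20 tested HIF targets of glycolysis its median was -0.55 on the log2 scale relative to the mean of vector cells in vehicle, while the other 2 libraries of that group were at -0.11 and -0.06. Across the 11 tested HIF targets outside glycolysis the medians were -0.79 in library 3 and 0 and -0.10 in libraries 1 and 2. The median over all tested genes was -0.01 in that library.

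With 4-OHT in TFEB cells, 24 of the 39 tested members fell and 5 rose, against 13.9% of all 13111 tested genes fallen and 13.7% risen (limma, adjusted p under 0.05). The median change of the members was -0.72 on the log2 scale, against 0.04 for all tested genes. The 2 groups of libraries did not overlap for 28 of the 39 members, against 38% of all tested genes. Falls were spread over the pathway, with 1 of 2 glucose transporters, 13 of 17 glycolysis genes, 3 of 5 lactate and pyruvate genes and 7 of 15 HIF pathway genes, whereas 4 of the 5 rises were HIF pathway genes and the fifth was the enolase gene Eno3. Leaving out any 1 library left 23 or 24 falls and 5 rises.

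**Figure D1:**
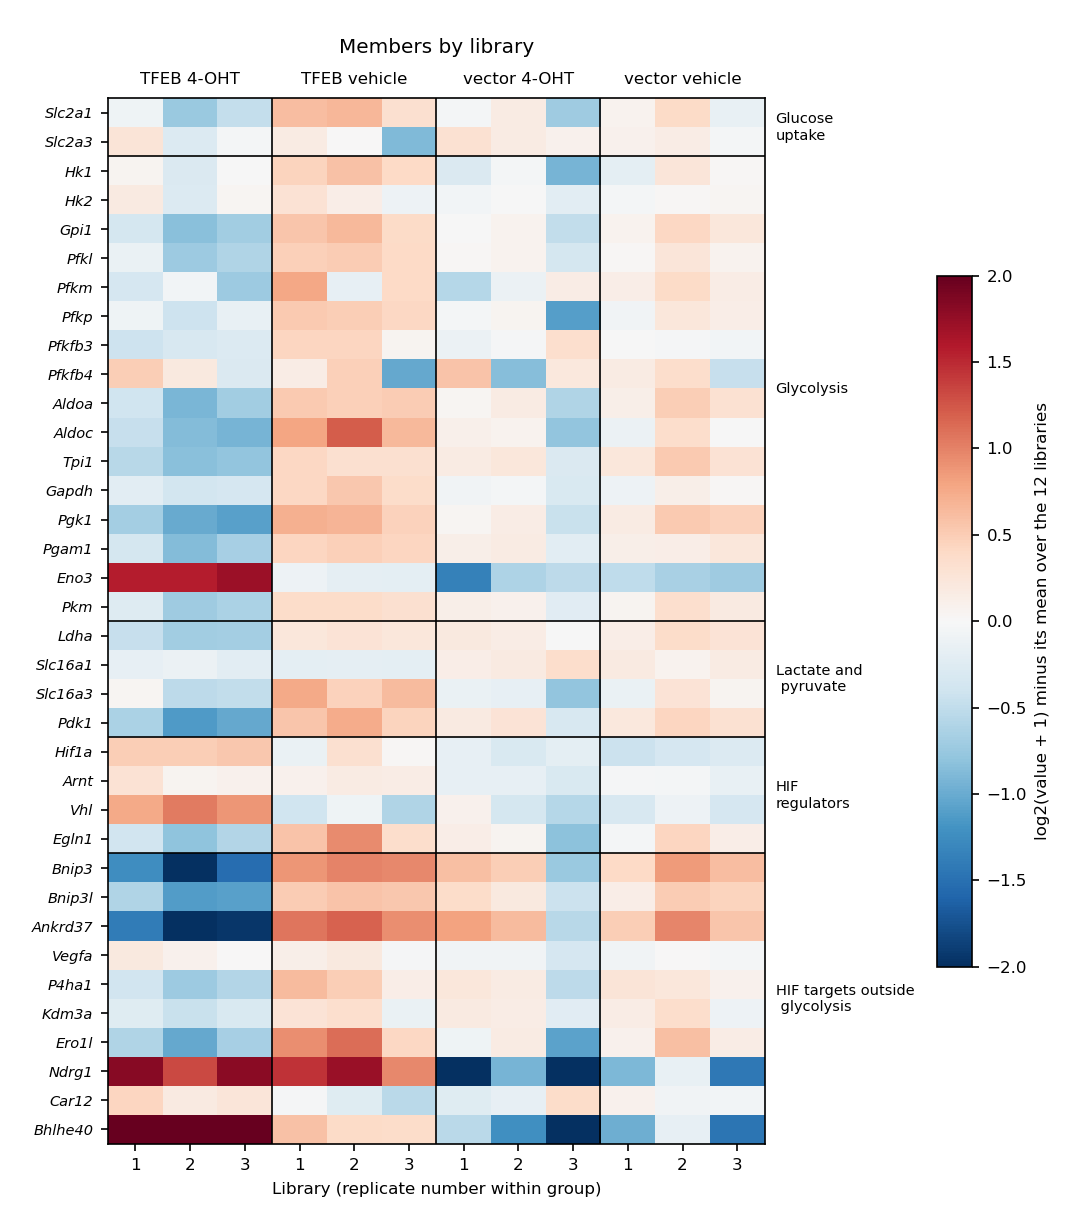
Members whose mean was at least 20 in every group, in each of the 12 libraries (columns, 3 per group), as log2(value + 1) minus the gene's mean over the 12 libraries, with the colour scale ending at -2 and 2. Most glycolysis rows are blue in the 3 TFEB libraries in 4-OHT and red in the 3 TFEB libraries in vehicle, Eno3, Vhl and Bhlhe40 run the other way, and library 3 of vector cells in 4-OHT is bluer than its group for Bnip3, Ankrd37 and Ero1l.

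Of the glucose transporters, Slc2a1, which encodes the widely expressed GLUT1, had 1268, 812 and 968 counts in TFEB cells in 4-OHT and 2065, 2133 and 1686 in TFEB cells in vehicle. These groups did not overlap, and the change was -0.97 ± 0.16 SE (log2, limma adjusted p = 2.47e-05). Slc2a3, encoding the high-affinity GLUT3, had 440.1, 305 and 356 counts in TFEB cells in 4-OHT and 409.6, 368 and 198 in TFEB cells in vehicle, which overlap, with a log2 change of 0.23 ± 0.21 SE that did not pass the threshold.

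The upper part of glycolysis fell at most steps. Hexokinase traps glucose as its phosphate: Hk1 fell by 1.47-fold with 4-OHT in TFEB cells (1494, 1176 and 1420.3 counts in 4-OHT and 1964, 2147 and 1897 in vehicle), while Hk2, the more abundant hexokinase per length, had 3381, 2472 and 3044 in 4-OHT and 3640.0, 3254 and 2761 in vehicle and was not called (log2 -0.12 ± 0.10 SE). The next step, glucose-6-phosphate isomerase, is encoded by Gpi1. Its counts were 11179.7, 8046 and 8790.4 in TFEB cells in 4-OHT and 21093, 22459 and 18678 in TFEB cells in vehicle, 2.24-fold lower with 4-OHT (log2 -1.16 ± 0.12 SE, limma adjusted p = 3.67e-09). Phosphofructokinase commits the sugar to glycolysis and has 3 isoforms. Pfkl, the liver type, had 4709, 3116 and 3373 counts in TFEB cells in 4-OHT and 7169, 7280.0 and 6754 in TFEB cells in vehicle (log2 -0.94 ± 0.11 SE). Pfkp, the platelet type, had 5522, 4378 and 5280.4 in 4-OHT and 8389, 8165 and 7777 in vehicle (log2 -0.69 ± 0.16 SE), and both fell with no overlap of groups. The muscle type Pfkm was far lower, with 155, 188 and 118 counts in TFEB cells in 4-OHT and 337, 176 and 259.9 in TFEB cells in vehicle; its groups overlapped, and its limma adjusted p of 0.0411 was above 0.05 when any of 5 single libraries was left out, up to 0.24 without library 1 of TFEB cells in vehicle. Pfkfb3 makes the activator of phosphofructokinase and fell (log2 -0.64 ± 0.11 SE; 1172 to 1294 counts in TFEB cells in 4-OHT and 1627 to 2115 in TFEB cells in vehicle), whereas its relative Pfkfb4 was at 83.4 to 143 in 4-OHT and 49.8 to 142 in vehicle and was not called. The falls of Hk1 and Pfkp did not pass the threshold without the 3 gene-rich libraries (limma adjusted p = 0.0676 for Hk1 and 0.0685 for Pfkp) or without a variance trend (0.102 for each).

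Aldolase splits the 6-carbon sugar. Aldoa, the muscle and widely expressed form, had 16711, 11595 and 13615 counts in TFEB cells in 4-OHT and 31656, 30417 and 31135 in TFEB cells in vehicle (log2 -1.17 ± 0.14 SE). Aldoc, the brain form, had 581, 436 and 421 counts in TFEB cells in 4-OHT and 1388, 1847 and 1249.6 in TFEB cells in vehicle, the largest fall within glycolysis (log2 -1.63 ± 0.18 SE, limma adjusted p = 1.38e-08). All 3 libraries in 4-OHT lay below all 3 in vehicle for both genes.

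Downstream of aldolase, the triose steps fell together, with Tpi1 at log2 -1.07 ± 0.11 SE, Gapdh at -0.74 ± 0.10 and Pgk1, which makes the first ATP of the pathway, at -1.54 ± 0.12 in TFEB cells (4-OHT over vehicle). Pgk1 had 4074, 3239.9 and 3068 counts in TFEB cells in 4-OHT and 10653, 10409.9 and 8941 in TFEB cells in vehicle (limma adjusted p = 8.22e-12), with no overlap. Gapdh, often used as a stable reference in expression assays, had 31259, 28068 and 28514 counts in TFEB cells in 4-OHT and 47927, 52228 and 46696 in TFEB cells in vehicle. Phosphoglycerate mutase Pgam1 fell by 2.1-fold and pyruvate kinase Pkm by 1.85-fold, with 23233 to 31945 counts of Pkm in TFEB cells in 4-OHT and 47755 to 49254 in TFEB cells in vehicle.

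Enolase acts between these 2 enzymes, and its muscle form ran the other way. Eno3, the muscle enolase, had 1674, 1683 and 1836 counts in TFEB cells in 4-OHT and 523, 495 and 489 in TFEB cells in vehicle, with a log2 change of 1.78 ± 0.16 SE (limma adjusted p = 2.3e-10). Vector cells had 219, 368 and 391 in 4-OHT and 396, 360.4 and 345 in vehicle. Eno1, the enolase of most cells, was listed at 0 to 20.5 in every library and Eno2, the neuronal form, at 0 to 10.99. The gene annotation of the same build holds 2 other genes with at least 98% identity to Eno1 over at least 50% of its transcript, so counting could drop or split its reads and its level is uncertain. Gapdh has 38 such copies, Pgk1 2, Pkm 1 and Ldhb 1, and their values carry the same uncertainty. Pkm also shares exonic bases with an annotated gene on its own strand.

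Per kilobase of annotated exon, the most abundant members in TFEB cells in 4-OHT were Gapdh (19586 ± 1156 counts per kb, SD, n = 3), Ldha (12067 ± 1134), Pkm (10232 ± 1803) and Aldoa (5448 ± 1005), where the libraries of Ldha (11382 to 13377) and Pkm (8939 to 12291) overlapped. In TFEB cells in vehicle the same 4 genes led, with Gapdh at 32743 ± 1943 counts per kb, Ldha at 21765 ± 328, Pkm at 18746 ± 323 and Aldoa at 12113 ± 243. Eno3 was at 1106 ± 58.2 counts per kb in TFEB cells in 4-OHT and 321 ± 11.4 in TFEB cells in vehicle, which in 4-OHT is close to Pgam1 (1068 ± 191) and Pfkl (1001 ± 229).

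**Figure D2:**
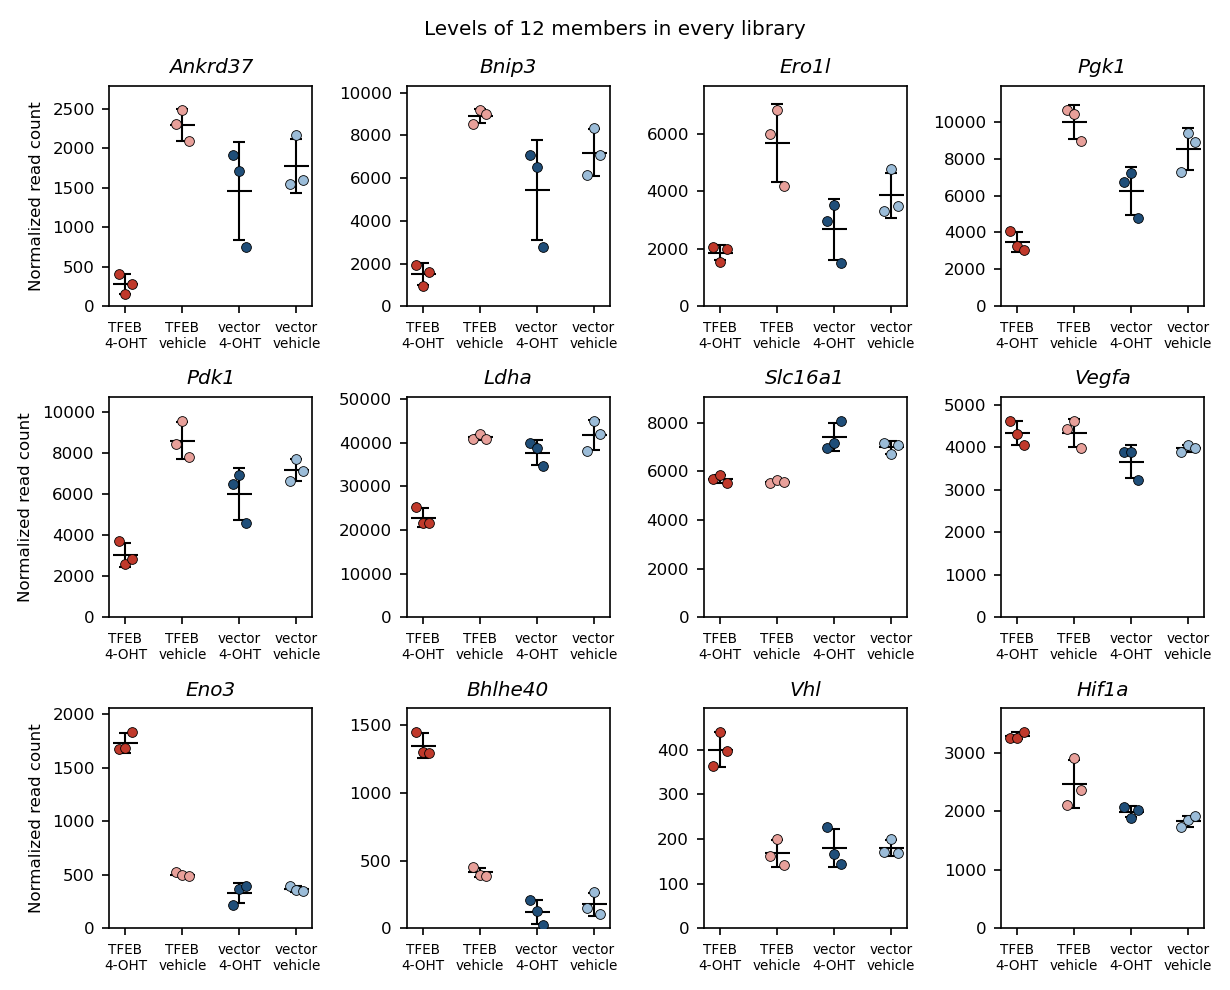
Normalized read counts (vertical axes from 0) of 12 members in the 3 libraries of each group, with the mean and SD. Ankrd37, Bnip3, Pgk1, Pdk1 and Ldha are lowest in TFEB cells in 4-OHT, Eno3, Bhlhe40, Vhl and Hif1a are highest there, and Slc16a1 and Vegfa overlap between TFEB cells in 4-OHT and in vehicle.

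Genes that direct pyruvate to lactate fell, and the transporter pair split. Ldha, the subunit that favours lactate, had 25349, 21569 and 21685 counts in TFEB cells in 4-OHT and 40937, 41959.9 and 40839 in TFEB cells in vehicle (log2 -0.85 ± 0.09 SE, limma adjusted p = 1.24e-08). Ldhb, the other subunit, was at 0 to 13.3 in all 12 libraries and was not called. Slc16a3, the lactate exporter MCT4, had 1609, 1098 and 1114 counts in TFEB cells in 4-OHT and 2661, 2164 and 2433 in TFEB cells in vehicle (log2 -0.94 ± 0.14 SE), with no overlap. Slc16a1, encoding MCT1, which carries lactate and pyruvate in either direction, had 5686, 5843 and 5501 counts in TFEB cells in 4-OHT and 5523, 5634 and 5576 in TFEB cells in vehicle, a log2 change of 0.02 ± 0.08 SE that did not pass the threshold. Pdk1, the kinase that inhibits pyruvate dehydrogenase, had 3694, 2615 and 2812 counts in TFEB cells in 4-OHT and 8409, 9562 and 7796 in TFEB cells in vehicle (log2 -1.51 ± 0.12 SE, limma adjusted p = 1.22e-11).

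The regulators of HIF moved in both directions. Hif1a had 3259.5, 3253 and 3361 counts in TFEB cells in 4-OHT and 2112, 2910.1 and 2356 in TFEB cells in vehicle, and rose (log2 0.43 ± 0.10 SE, limma adjusted p = 0.000814). Its partner Arnt had 1609.9, 1372 and 1408 in 4-OHT and 1404, 1485 and 1465 in vehicle and was not called. Vhl, the ubiquitin ligase subunit that recognises hydroxylated HIF, had 363, 440.2 and 396 counts in TFEB cells in 4-OHT and 163, 201 and 141 in TFEB cells in vehicle, a rise of 2.39-fold (log2 1.25 ± 0.23 SE, limma adjusted p = 7.26e-05). Egln1 is the main oxygen-sensing prolyl hydroxylase and itself a HIF target. It had 2211, 1654 and 1919.9 counts in TFEB cells in 4-OHT and 4265, 5531 and 3688 in TFEB cells in vehicle, and fell by 2.31-fold. Here it is counted with the regulators and is not in the counts of HIF targets below. Egln3 was at 0 to 20.7 in all libraries and was not called. Hif1a shares exonic bases with annotated genes on both strands, and no source used here says whether counting used strand.

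Among the 11 tested HIF targets outside glycolysis, 6 fell and 2 rose with 4-OHT in TFEB cells. The shares over all tested genes were 13.9% fallen and 13.7% risen (limma), so the count of rises was near its share. Ankrd37, an ankyrin repeat gene strongly induced by HIF, had 413, 161 and 283 counts in TFEB cells in 4-OHT and 2307, 2491 and 2087 in TFEB cells in vehicle, 8.56-fold lower with 4-OHT (log2 -3.10 ± 0.24 SE, limma adjusted p = 8.09e-12). Bnip3, a mitophagy receptor of the outer mitochondrial membrane, had 1955, 967 and 1621 counts in TFEB cells in 4-OHT and 8532, 9203 and 8995 in TFEB cells in vehicle, 6.13-fold lower with 4-OHT (log2 -2.62 ± 0.21 SE, limma adjusted p = 1.81e-11). These were the largest falls of all 39 tested members, and the groups were far apart.

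Bnip3l, the related mitophagy receptor NIX, had 3375, 2354 and 2407 counts in TFEB cells in 4-OHT and 7321, 7603 and 7434 in TFEB cells in vehicle (log2 -1.48 ± 0.14 SE). Ero1l, an oxidase of disulfide formation in the endoplasmic reticulum, had 2073, 1557 and 1984 counts in TFEB cells in 4-OHT and 5991, 6846 and 4202 in TFEB cells in vehicle (log2 -1.58 ± 0.19 SE). P4ha1, a collagen prolyl hydroxylase subunit, fell by 1.97-fold, and the histone demethylase gene Kdm3a by 1.4-fold. The fall of Kdm3a did not pass the threshold without the 3 gene-rich libraries (limma adjusted p = 0.121) or without a variance trend (0.0715). Vegfa, the angiogenic factor, had 4624, 4299.6 and 4062 counts in TFEB cells in 4-OHT and 4419.7, 4623 and 3973 in TFEB cells in vehicle, and was not called (log2 -0.0025 ± 0.09 SE). Ndrg1, a stress-induced gene, was not called either (269.8 to 383 counts in TFEB cells in 4-OHT and 209 to 355 in TFEB cells in vehicle).

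Bhlhe40, a transcriptional repressor known as DEC1, rose, with 1453, 1301 and 1291 counts in TFEB cells in 4-OHT and 452, 396 and 389.8 in TFEB cells in vehicle (log2 1.71 ± 0.39 SE, limma adjusted p = 0.00102). Car12, a membrane carbonic anhydrase, had 924, 772 and 813 counts in TFEB cells in 4-OHT and 676, 578 and 471 in TFEB cells in vehicle (log2 0.55 ± 0.15 SE). The groups did not overlap for Bhlhe40 or for Car12, and neither rise passed the threshold in a fit without a variance trend (limma adjusted p = 0.0903 for Bhlhe40 and 0.0578 for Car12). Bnip3, Ankrd37, Ndrg1 and Bhlhe40 each share exonic bases with an annotated gene on the opposite strand, as do Slc2a1, Hk1, Gpi1, Pfkm, Pfkp, Aldoa and Tpi1.

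Taken by class, 22 of the 31 tested HIF targets fell and 2 rose, with a median log2 change of -0.89 with 4-OHT in TFEB cells. Of all tested genes 13.9% fell and 13.7% rose in this comparison (limma), with a median of 0.04. The HIF targets within glycolysis and lactate handling gave 16 falls and 0 rises of 20 with a median of -0.92, and those outside it 6 falls and 2 rises of 11 with a median of -0.49. The remaining 4 metabolic members, which are not usual HIF targets, were Pfkm, Eno3, Ldhb and Slc16a1, with 1 fall, 1 rise and 2 not called. Where only the best known HIF targets were kept as such and Hk1, Gpi1, Pfkl, Pfkp and Pgam1 were moved to the other class, 17 of 26 HIF targets and 6 of 9 other members fell, with medians of -0.87 and -0.69. The share of falls was then nearly equal between classes, and the difference between classes was not tested.

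In vector cells 4-OHT called 0 members in either direction, against 0.0153% of all tested genes fallen and 0% risen (limma). Changes were below 0 for 34 of the 39 members, with a median of -0.23 against 0.03 for all tested genes, and 14 of the 39 members had an unadjusted p under 0.05, against 6.27% of all tested genes. With edgeR's quasi-likelihood test 0 genes were called, and 15 members had an unadjusted p under 0.05 against 7.7% of all tested genes. DESeq2 called 14 genes up and 34 down and gave 5 members an unadjusted p under 0.05, against 9.47% of all tested genes. That number of members was 2 without a variance trend (4.88% of genes) and 6 with only the groups compared (5.96% of genes), so it depended on the tool and the variance model. Bnip3 had 7067, 6509.8 and 2777 counts in vector cells in 4-OHT and 6132, 8344 and 7097 in vector cells in vehicle (log2 -0.50 ± 0.21 SE). Pgk1 had 6706, 7211 and 4760.1 counts in vector cells in 4-OHT and 7249, 9380.3 and 8925 in vector cells in vehicle (log2 -0.47 ± 0.12 SE), and it was 1 of 3 members, with Tpi1 and Arnt, whose groups did not overlap, against 10.8% of all tested genes. For Bnip3 and Pgk1 library 3 in 4-OHT was the lowest of the 6. Without it 3 members had an unadjusted p under 0.05, against 5.16% of all tested genes. That number was 18 without library 1 in 4-OHT (5.99% of genes) and 17 without library 2 in 4-OHT (8.5% of genes). In the fit without library 2, 3 members were called as fallen, among 46 of all 13111 tested genes.

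**Figure D3:**
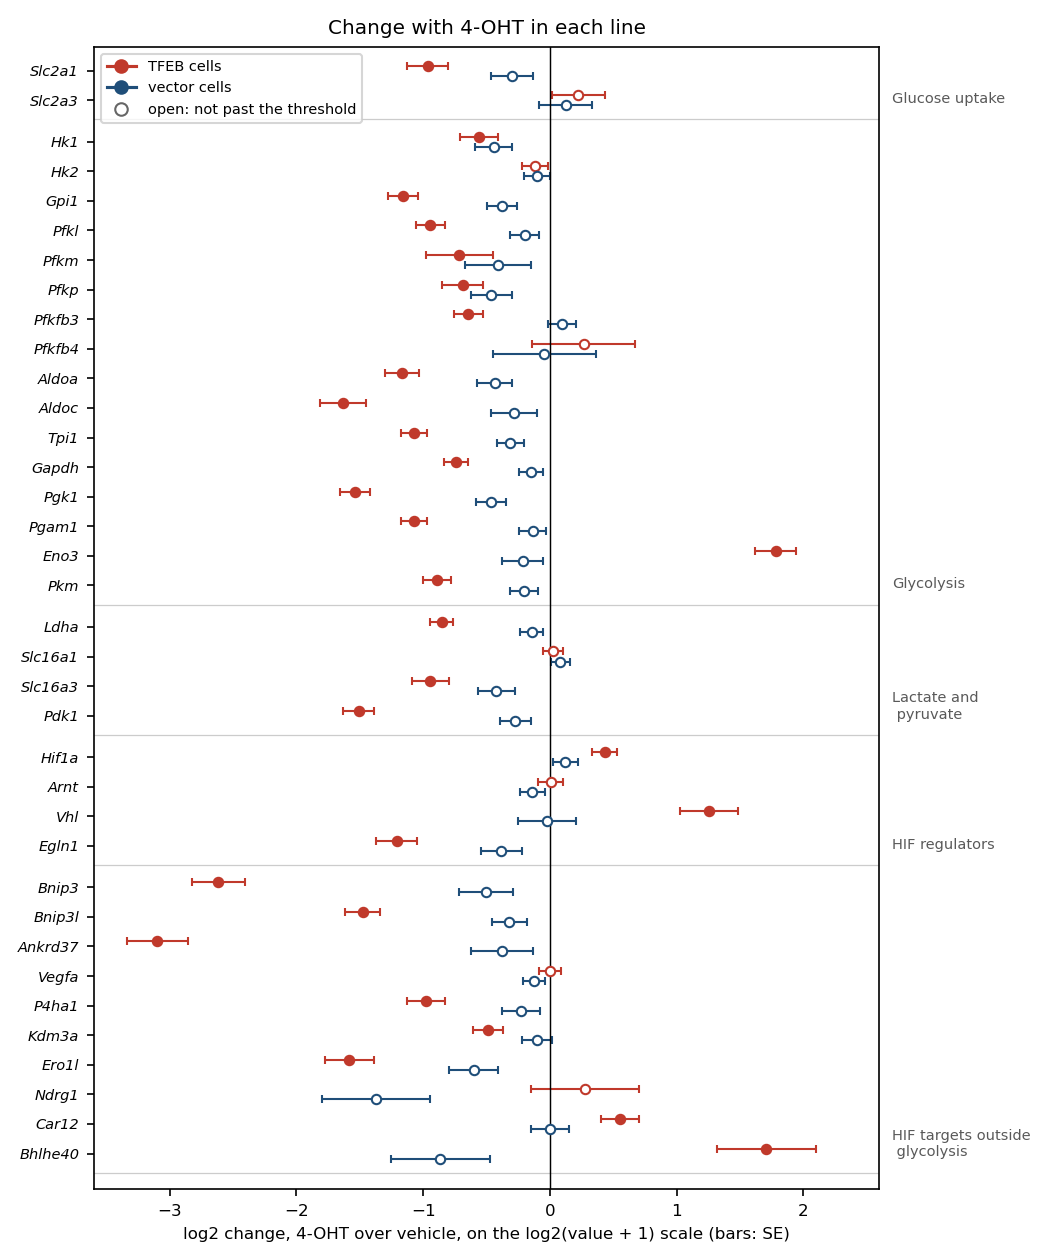
log2 change with 4-OHT (horizontal axis, ± SE) in TFEB cells and in vector cells for members with a mean of at least 20 in every group; filled points passed the threshold. TFEB cells have most filled points left of 0, reaching -3.10 for Ankrd37, while vector cells have only open points, most of them slightly left of 0.

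The effect of 4-OHT differed between TFEB cells and vector cells for 22 members by the test of that difference itself, 19 of them with a lower and 3 with a higher change in TFEB cells, against 8.01% and 7.75% of all tested genes (limma, interaction term). The largest differences were Ankrd37 (log2 -2.72 ± 0.34 SE, limma adjusted p = 3.73e-07), Bnip3 (-2.11 ± 0.30 SE) and Aldoc (-1.35 ± 0.26 SE) on the lower side, and Bhlhe40 (2.57 ± 0.55 SE), Eno3 (2.00 ± 0.23 SE) and Vhl (1.28 ± 0.33 SE) on the higher side. The differences for Aldoc and Bhlhe40 did not pass without a variance trend (limma adjusted p = 0.0536 and 0.114), nor that for Vhl without the 3 gene-rich libraries (0.0806). Hk1, Pfkm, Pfkp, Slc16a3, Kdm3a, Hif1a and Car12 passed in TFEB cells alone, but for these the difference between lines did not pass. Without library 3 of vector cells in 4-OHT there were 22 lower and 4 higher; without the 3 gene-rich libraries there were 9 lower and 3 higher.

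Between the lines in vehicle, 6 members were higher and 1 was lower in TFEB cells than in vector cells, against 2.89% and 2.49% of all tested genes (limma). Ndrg1 had 294, 355 and 209 counts in TFEB cells in vehicle and 56.8, 96.8 and 39.2 in vector cells in vehicle (log2 2.20 ± 0.43 SE, limma adjusted p = 0.00108). Bhlhe40 (log2 1.31), Aldoc (0.81), Slc16a3 (0.55), Gapdh (0.43) and Hif1a (0.41) were the other 5 higher members, and Slc16a1 (log2 -0.32 ± 0.08 SE) was the lower one. Groups did not overlap for 18 of the 39 members, against 21.6% of all tested genes. The median member was 0.26 higher on the log2 scale, against 0.05 for all tested genes. Each of the 7 calls was lost under at least 1 alternative, and without library 3 of vector cells in 4-OHT, which enters only through the shared estimate of spread, 12 members were higher; without library 2 of TFEB cells in vehicle 3 were.

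With both lines in 4-OHT, 17 members were lower and 7 higher in TFEB cells, against 13.5% and 13.6% of all tested genes (limma). Ankrd37 (log2 -2.34 ± 0.24 SE), Bnip3 (-1.79 ± 0.21 SE) and Bnip3l (-0.98 ± 0.14 SE) were the lowest. Among the members that fell with 4-OHT in TFEB cells, Slc2a1, Hk1, Pfkm, Pfkp, Gapdh, Slc16a3, Egln1 and Ero1l were not called between the lines in 4-OHT. Their log2 differences between the lines ran from -0.44 for Ero1l to 0.34 for Hk1, with Slc2a1 at -0.24, Gapdh at -0.16 and Slc16a3 at 0.03. Bhlhe40 had 1453, 1301 and 1291 counts in TFEB cells in 4-OHT and 208, 128 and 27.1 in vector cells in 4-OHT (log2 3.89 ± 0.39 SE). Ndrg1 had 383, 269.8 and 377 counts in TFEB cells in 4-OHT and 10.7, 55.8 and 18.6 in vector cells in 4-OHT (log2 3.85 ± 0.43 SE), a difference between the lines that was called in vehicle and in 4-OHT. Eno3 (2.45), Vhl (1.17), Hif1a (0.73), Arnt (0.36) and Vegfa (0.25) were the remaining higher members; Vegfa did not pass without library 3 of vector cells in 4-OHT (limma adjusted p = 0.235), and 19 members were lower without it. This comparison, the one in vehicle and the ones within each line share their libraries, so their values are given side by side and not compared.

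The balance between isoforms of the same step was compared as ratios. Of 11 paralog pairs with both members tested, the log2 ratio did not overlap between TFEB cells in 4-OHT and in vehicle in 7, and in 0 pairs between vector cells in 4-OHT and in vehicle. In 3 of the 11 pairs 1 member was near 0 (Eno3/Eno1, Ldhb/Ldha and Egln3/Egln1), which leaves 6 of 8 well measured pairs without overlap. Ratios of other gene pairs were not computed, so whether these counts are unusual was not tested. Groups of 3 cannot give an exact two-sided permutation p below 0.1, which these pairs reached (0.157 after adjustment over the 11 pairs), so no pair passed the threshold. The log2 ratio of Slc2a3 to Slc2a1 was -1.46 ± 0.06 in TFEB cells in 4-OHT and -2.65 ± 0.39 in TFEB cells in vehicle (SD, n = 3). Per kilobase, Slc2a3 made up 23.0 ± 0.71% of the pair in TFEB cells in 4-OHT and 11.8 ± 2.68% in TFEB cells in vehicle. In vector cells its share was 22.8 ± 4.86% in 4-OHT and 17.9 ± 1.75% in vehicle.

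Bnip3l to Bnip3 had log2 ratios of 0.79, 1.28 and 0.57 in TFEB cells in 4-OHT and -0.22, -0.28 and -0.27 in TFEB cells in vehicle, and per kilobase Bnip3 made up 49.0 ± 6.3% and 67.9 ± 0.476% of the pair in these 2 groups. In vector cells Bnip3 made up 62.7 ± 5.58% in 4-OHT and 65.7 ± 1.28% in vehicle. For the lactate transporters, the log2 ratio of Slc16a3 to Slc16a1 was -2.18 ± 0.31 in TFEB cells in 4-OHT and -1.21 ± 0.16 in TFEB cells in vehicle, and Slc16a3 made up 18.2 ± 3.33% and 30.1 ± 2.38% of the pair per kilobase. In vector cells Slc16a3 made up 14.5 ± 3.82% in 4-OHT and 19.1 ± 2.76% in vehicle. The log2 ratio of Hk1 to Hk2 differed by -0.44 and that of Aldoc to Aldoa by -0.47 (4-OHT minus vehicle) in TFEB cells, without overlap. Mean ratios of Hk1 to Hk2 were -1.12 in 4-OHT and -0.68 in vehicle in TFEB cells, and -1.38 and -1.04 in vector cells. Those of Aldoc to Aldoa were -4.86 and -4.40 in TFEB cells, and -4.85 and -5.00 in vector cells, in the same order. Pfkp to Pfkl had log2 ratios of 0.23, 0.49 and 0.65 in TFEB cells in 4-OHT and 0.23, 0.17 and 0.20 in TFEB cells in vehicle, so that the groups nearly touched. Pfkp was at 53.0 ± 3.56% of phosphofructokinase per kilobase in TFEB cells in 4-OHT and 48.8 ± 0.193% in TFEB cells in vehicle and Pfkm at 2.4 ± 0.799% and 2.2 ± 0.666%. Pfkfb4 to Pfkfb3 and Pfkm to Pfkl overlapped between groups. Ratios of 2 falling genes show unequal change only.

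**Figure D4:**
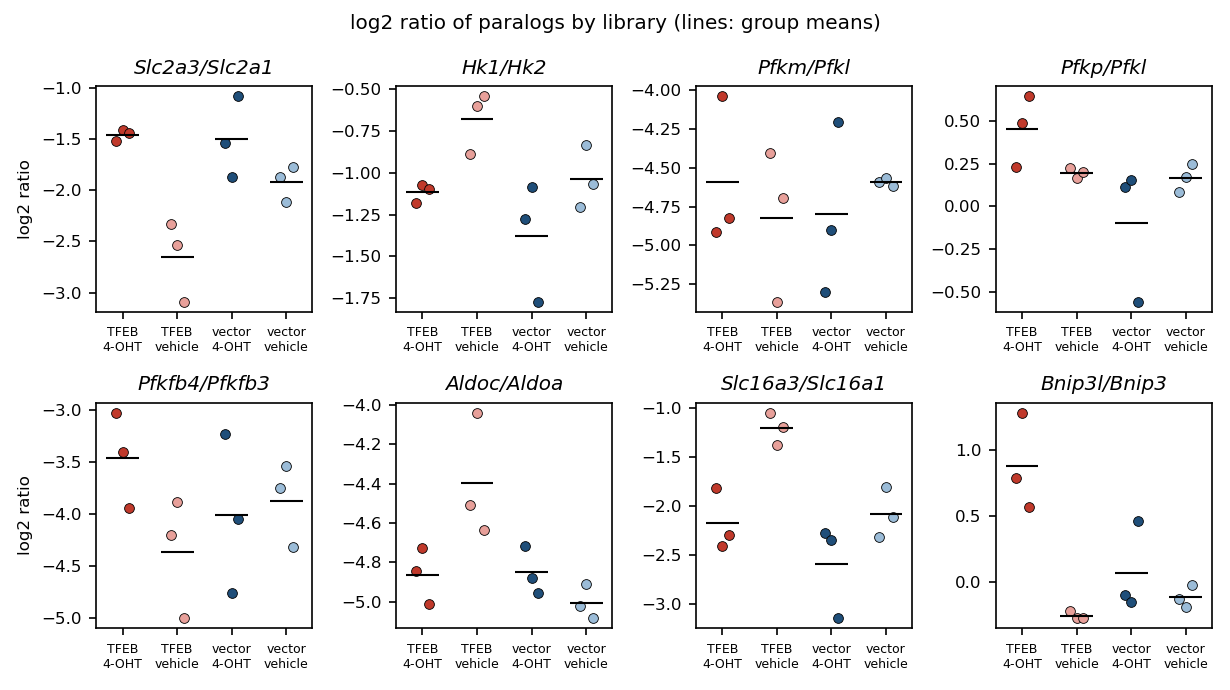
log2 ratio of the 2 paralogs named above each panel in every library (points; lines are group means) for the 8 pairs whose members both averaged at least 50 counts in every group. In TFEB cells Slc2a3/Slc2a1 and Bnip3l/Bnip3 are higher in 4-OHT and Slc16a3/Slc16a1 is lower, without overlap, and the vector groups overlap in all 8 panels.

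Other genes around the pathway are given beside the 13.7% of all tested genes that rose and the 13.9% that fell with 4-OHT in TFEB cells; these lists are short, and most of their counts are near those shares. Of 24 further tested genes of glucose transport and glycolysis, 2 rose and 2 fell, with a median log2 change of 0.09: Pfkfb2, another maker of the phosphofructokinase activator (log2 0.92), and the phosphoglucomutase Pgm2 (0.63) rose, while the transporter Slc2a9 (-1.39) and the ADP-dependent glucokinase Adpgk (-0.48) fell. Of 11 genes of pyruvate entry into mitochondria, the pyruvate dehydrogenase subunit Pdha1 (0.44) and the pyruvate carrier Mpc1 (0.43) rose, and pyruvate carboxylase Pcx (-1.18) fell. In the pentose phosphate list 2 of 10 rose, ribokinase Rbks (0.91) and G6pdx (0.50), the entry enzyme, and 0 fell. In the glucose-sensing MondoA list 2 of 3 fell, the factor Mlxip (-0.46) and its target Txnip (-1.21), which restrains glucose uptake.

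Further along the HIF pathway, 3 of 15 other regulators fell and 0 rose, also near the 13.9% of all genes fallen: Cited2 (log2 -1.31), which competes with HIF for its coactivator, and Cul2 (-0.57) and Rbx1 (-0.35), parts of the VHL ligase. A list of 32 other tested HIF targets gave 15 falls and 3 rises, with a median of -0.46. The largest falls there were Loxl2 (-2.62), Fam162a (-1.78), Mxi1 (-1.31) and Pim1 (-1.09), and the rises were the chemokine receptor Cxcr4 (1.84), Zfp36l1 (0.71) and Plin2 (0.53), a lipid droplet protein. All these lists were likewise chosen with earlier results known.

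The promoter windows were searched on both strands for the HIF core ACGTG or GCGTG, for the E-box CACGTG, which contains the core on both strands, and for TCACGTGA. RefSeq windows were found for 38 of the 42 members (54 windows), and not for Slc2a3, Bnip3l, Ndrg1 and Bhlhe40. The core was in 75.9% of the members' windows and in 43.8% of all 32851 windows of this length. It was in 75% of the 36 windows of members that fell with 4-OHT in TFEB cells, 50% of the 4 windows of members that rose and 90.9% of the 11 windows of members not called. Most members were listed as HIF targets, and their windows were not matched to all windows for GC content. Some windows of the same gene overlap, as for Aldoa and Eno1, and were counted separately. CACGTG was in 11.1% of the members' windows and 7.2% of all windows, and TCACGTGA in 0 of 54 and 1.0%. The first of 2 Ldha windows held 7 core matches, 3 of them outside its 2 E-boxes, and the Slc16a1 window held 5, 3 of them outside its 1 E-box; these 2 were singled out after their values were seen. A match in such a window is a run of letters and not a measured binding site.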

How the data were processed

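Total RNA of 12 cultured lymphoma libraries was sequenced after a NuGEN Ovation mouse RNA-seq preparation, per the labels' protocols. The authors' deposited table holds 1 signal value per gene and library, called normalized read counts there. The build mm10 and the tools DESeq2 1.6.3, HTSeq 0.6.1 and STAR 2.5.3 come from the submitters' processing notes, which assign no steps; gene annotation and strand use are not stated. In every library 100% of values above 0 were whole multiples of the value of 1 read (tolerance 0.001), so whole reads were recovered and the normalization amounts to 1 factor per library. A value of 0 means that no read was counted. The expected count behind it could be up to 3 reads, or 2.21 to 4.15 normalized counts by library. Such floors cover counting error only.

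Here the 13111 genes that reached 10 in 3 or more libraries were taken to log2 after adding 1 and fitted with limma 3.58.1 (R 4.3.3), with 1 mean per group over all 12 libraries and a variance trend. Benjamini-Hochberg adjustment covered all tested genes, with a threshold of 0.05. edgeR 4.0.16 and DESeq2 1.42.0 were run on the recovered reads as alternatives; edgeR called 3400, 0, 1940, 646 and 3353 genes in the comparisons of 4-OHT in TFEB cells, in vector cells, their difference, and of the lines in vehicle and in 4-OHT. Isoform ratios were tested by exact permutation (SciPy 1.17.1). Gene lengths, overlaps and near-identical copies (BLAST+ 2.17.0) come from the GENCODE annotation of mm10, matched by symbol.

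The members and lists were chosen with earlier results of these data known. All members are named; values in every library are given for the 10 largest falls and every rise with 4-OHT in TFEB cells, for Hif1a, Arnt, Vhl and Egln1, and for isoform pairs described, and for some further members chosen after their values were seen. Of other lists, up to 4 genes per direction are named. Alternatives were other pseudocounts, filters, scalings, tools and variance models, a replicate block, only the groups compared, and leaving out each library.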

Additional observations from a re-analysis of the deposited data

Results flagged for a closer look

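The change with 4-OHT differed between TFEB cells and vector cells by the interaction term of the limma fit for 22 members, given here as the log2 change in TFEB cells minus that in vector cells. HIF targets outside glycolysis with a lower change in TFEB cells were Ankrd37 (-2.72), Bnip3 (-2.11), Bnip3l (-1.16), Ero1l (-0.98) and P4ha1 (-0.75), with the regulator Egln1 (-0.83). In sugar uptake and the upper part of glycolysis the difference was -0.67 for Slc2a1, -0.78 for Gpi1, -0.74 for Pfkl, -0.74 for Pfkfb3, -0.73 for Aldoa and -1.35 for Aldoc. In the lower part it was -0.76 for Tpi1, -0.59 for Gapdh, -1.07 for Pgk1, -0.94 for Pgam1 and -0.68 for Pkm. For lactate and pyruvate it was -0.71 for Ldha and -1.24 for Pdk1. A higher change in TFEB cells was found for Bhlhe40 (2.57), Eno3 (2.00) and Vhl (1.28). The difference for Slc2a1 had a limma adjusted p of 0.047 and did not pass the threshold under 14 of its 24 alternatives. Calls for 12 further genes were lost under at least 1 alternative: 6 alternatives for Egln1, 5 for P4ha1, 4 for Ero1l, 2 each for Gpi1, Pfkl, Aldoa, Tpi1 and Pkm, and 1 each for Aldoc, Gapdh, Vhl and Bhlhe40.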

How the results depend on the processing

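Counts are of members called unless all tested genes are named, and no called member changed sign under any alternative run. With 4-OHT in TFEB cells, 23 of 29 calls held under every alternative, and 3 members rose without a variance trend. In that fit 1494 of all tested genes rose, against 1792 in the main fit. For the difference between lines, 9 of 22 calls held under every alternative. Without a variance trend 9 members were lower (681 of all tested genes, against 1050 in the main fit). Without the 3 gene-rich libraries 9 were lower (709 of all tested genes). Those libraries were TFEB 4-OHT library 2, TFEB vehicle library 1 and vector 4-OHT library 2. Each had the most detected genes of its group, and they were chosen after the data were seen. With array weights 5 members were higher (1242 of all tested genes, against 1016 in the main fit). Between lines in vehicle, 0 of 7 calls held under every alternative. Members higher numbered 0 without a variance trend, 13 with array weights and 3 without those 3 libraries. Of all tested genes 140, 639 and 235 were higher in these settings, against 379 in the main fit. Without a variance trend and without those 3 libraries 0 members were lower. All tested genes that were lower there numbered 119 and 268, against 326 in the main fit. Between lines in 4-OHT, 14 of 24 calls held under every alternative. Members lower numbered 10 without a variance trend and 10 without those 3 libraries. Of all tested genes 1430 and 1275 were lower there, against 1768 in the main fit. In vector cells array weights gave 1 fall among members and 34 among all tested genes.

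Leaving out 1 library gave 23 to 24 falls and 5 to 5 rises with 4-OHT in TFEB cells. In vector cells it gave 0 to 3 falls and 0 to 0 rises. The 3 falls came without vector 4-OHT library 2, where 46 of all tested genes fell. For the difference between lines 15 to 22 members were lower and 3 to 4 higher. Between lines in vehicle 3 to 12 were higher and 1 to 1 lower. Between lines in 4-OHT 13 to 19 were lower and 5 to 8 higher. Isoform pairs without overlap numbered 7 to 8. The median of HIF targets ran from -1.03 to -0.82. That of the 4 other metabolic members was 0.90 and ran from 0.79 to 0.91; it was -0.69 with the strict list of HIF targets, a reversal that comes from moving 5 fallen genes into that class, 0.28 with a pseudocount of 10, 0.025 with a minimum value of 50 and 0.51 with array weights, so it is not a stable value. The values gave no sign that replicate numbers pair the libraries, which does not show that they were unpaired. Same-number correlations were -0.12 to 0.17 over 18 pairs, and different-number ones -0.23 to 0.19 over 36. With the replicate block 24 members fell and 5 rose in TFEB cells (1821 and 1780 of all tested genes). Between lines in vehicle 9 were higher with it (389 of all tested genes). The cause of the lost calls was not tested. Eno1, Ldhb and Egln3 were near 0 in every library, and their changes cannot be read; for Eno1 and Ldhb near-identical copies also leave the level uncertain.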
